A study of Drosophila melanogaster with 4 samples.

Results

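Nibbler (Nbr) is a 3′-to-5′ exonuclease that shortens miRNAs after they have been loaded into Argonaute, and the comparison described here is between S2 cells that lack it and the same knockout cells given full-length Nbr back. Drosophila Schneider 2 (S2) cells are a line of embryonic origin. One library, nbrKO, came from S2 cells in which the nbr gene had been disrupted by CRISPR-Cas9. The other, Nbr(wt), has the genotype Act5C>Nbr(wt); nbrKO: the same knockout cells, stably transfected with wild-type Nbr behind the promoter of Actin 5C, which is active in nearly all fly cells. These are 2 of the 4 small RNA libraries of the series, with 1 library per group. Both groups carry the nbr knockout, the title of the second calls the construct overexpressed, and no library of cells with intact Nbr or with an empty construct was used here. The sources used here do not say whether either line is a single clone.

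A miRNA is cut from a hairpin precursor by Drosha and then Dicer, which leaves a duplex of a 5p and a 3p arm. Argonaute keeps the guide arm and the passenger arm is mostly discarded, so passengers are rare. The 5′ end of the guide is anchored in Argonaute and its bases 2 to 7 or 2 to 8, the seed, choose the targets. The 3′ end is within reach of other enzymes: exonucleases such as Nbr trim it, and terminal nucleotidyltransferases add untemplated bases, called a tail. The question addressed is how 3′ tails, abundance, 5′ ends and the balance of the arms differ between cells without Nbr and cells given full-length Nbr. Read lengths, the direct measure of trimming, were not analysed here.

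The measurements cover 287 miRNA arms given in both libraries, joined from 298 of the 495 rows of the deposited table. Together they held 13125865 reads in nbrKO and 20177199 with Nbr(wt). A further 73 rows were given only in nbrKO, with at most 30 reads each, and 55 only with Nbr(wt), with at most 17. The 8 arms listed as common in S2 cells, among them bantam-3p, miR-14-3p, miR-184-3p and miR-8-3p, summed to 665388 reads per 1000000 reads of the joined arms (miRNA RPM) in nbrKO and to 706772 with Nbr(wt). Markers of muscle, neurons, embryo, ovary, testis and later stages summed to 236 and 167 miRNA RPM over the 15 of 20 that were given in both, and the 5 testis markers were not among these. The muscle miRNA miR-1-3p had 10 and 9 reads and the neuronal miR-124-3p had 26 and 3. RNA of 18 to 30 nt was sequenced, so Nbr mRNA was outside the measurement and gives no check of the genotypes. Intervals below are exact 95% intervals on reads, which cover counting error only. Reads without molecular identifiers are not independent molecules, and with 1 library per group no difference has a replicate check or a p-value.

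The arms on which the tail results turn begin with the 7 bases below, read 5′ to 3′ from the deposited table, where the capitals mark bases 2 to 7, the part of the seed that the table holds. They are shown because arms with the same seed can be compared, and because relatives with the same first bases were called in different directions. In the coordinates of the deposited table, whose genome build is not given in the sources used here, miR-34-5p starts at 5926673 and miR-317-3p at 5916902 on the plus strand of 3R. miR-305-5p starts at 7425978 and miR-275-3p at 7425852 on the plus strand of 2L.
miR-34-5p: tGGCAGT
miR-317-3p: tGAACAC
miR-305-5p: aTTGTAC
miR-275-3p: tCAGGTA
miR-306-5p: tCAGGTA
miR-965-3p: tAAGCGT
miR-283-5p: aAATATC
miR-9b-5p: tCTTTGG
miR-9c-5p: tCTTTGG
miR-995-3p: tAGCACC
miR-998-3p: tAGCACC
miR-279-3p: tGACTAG
miR-996-3p: tGACTAG
miR-2b-3p: tATCACA
miR-13b-3p: tATCACA
bantam-3p: tGAGATC

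Full-length Nbr went with fewer tails on a large group of miRNAs. The tailed share of an arm is its reads with an untemplated 3′ tail over all reads of its leading 5′ isoform, and an arm was called where its interval in one library lay wholly outside that in the other. Of 122 arms with at least 100 reads in both libraries, 55 had a lower share with Nbr(wt) (45.1% of those tested) and 6 a higher one (4.92%), while the intervals overlapped for 61. Counting differences of any size, 89 were lower, 32 higher and 1 equal. The median share was 2.97% in nbrKO and 2.02% with Nbr(wt).

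**Figure D1:**
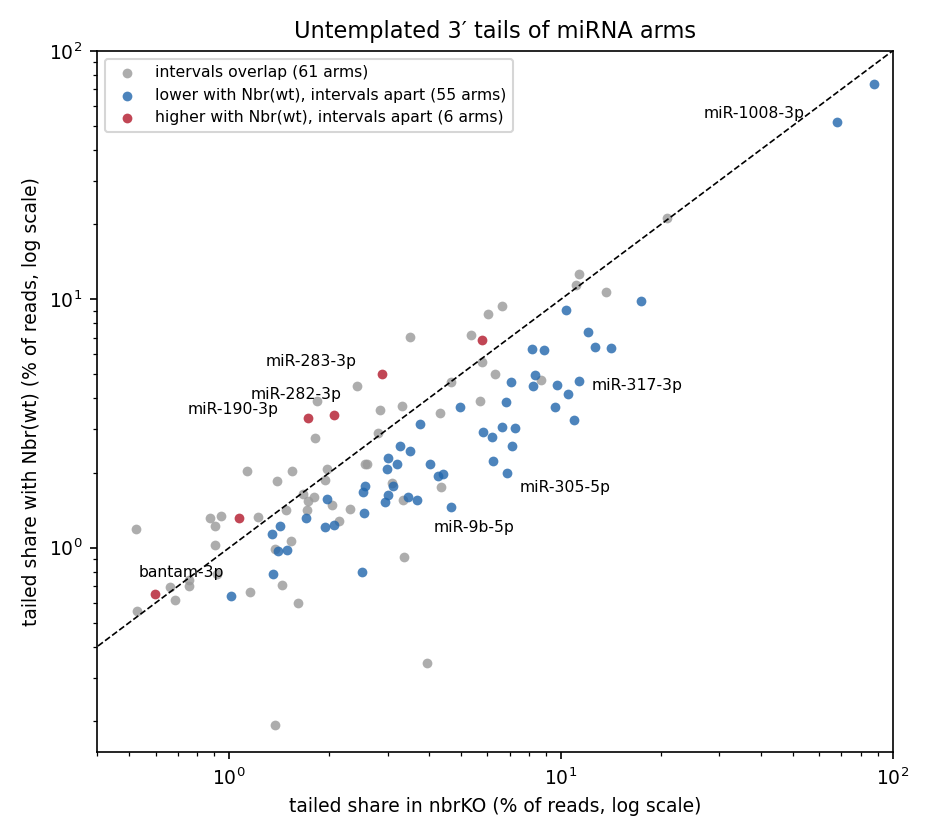
Tailed share of each arm, as a percentage of its reads, in nbrKO (x axis) and with Nbr(wt) (y axis), both on log scales, 1 point per arm and the dashed line marking equal shares. Blue points, the 55 arms with a lower share, lie under the line, the 6 red points above it, and the 3 arms with no tailed read in at least 1 library are not drawn.

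Among arms with at least 10000 reads in both libraries, miR-305-5p, a regulator of insulin and Notch signalling in the gut, had the largest fall in the odds of a tail. Of its reads 6.88% (6.71 to 7.05) were tailed without Nbr and 2.00% (1.93 to 2.07) with it, a log2 odds ratio of -1.86 ± 0.03 (SE from the reads). miR-9b-5p, from an intron of grapes (grp) in the Release 6 annotation, had 4.65% (4.30 to 5.02) and 1.45% (1.36 to 1.55). miR-283-5p, from an intron of Gmap, had 7.14% (6.88 to 7.40) and 2.57% (2.46 to 2.68). In each of these arms the Nbr(wt) interval lay far under that of nbrKO.

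Both arms of mir-34, a miRNA of ageing and neuronal maintenance, were in the same group. miR-34-5p, the guide, had 9.58% (9.45 to 9.72) without Nbr and 3.70% (3.63 to 3.78) with it. Its passenger miR-34-3p had 6.26% (5.95 to 6.57) and 2.23% (2.06 to 2.41), so guide and passenger had nearly equal log2 odds ratios of -1.46 ± 0.02 and -1.55 ± 0.07. The remaining arms by this measure were miR-317-3p, whose gene is clustered with that of miR-34, the passenger miR-2a-1-5p and miR-965-3p, from an intron of kismet (kis). They had log2 odds ratios of -1.38, -1.19 and -1.19.

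In percentage points the largest falls belonged to arms that were heavily tailed without Nbr. miR-1008-3p, a mirtron, had 68.0% of its reads tailed in nbrKO and 51.5% with Nbr(wt). A mirtron is a hairpin released by splicing instead of Drosha, whose 3′ end is known in flies to be uridylated by the enzyme Tailor. miR-2497-3p, with 181 and 199 reads, had 87.8% (82.2 to 92.2) and 73.4% (66.7 to 79.4). miR-31a-5p, with 329 and 275 reads, had 10.9% (7.78 to 14.8) and 3.27% (1.51 to 6.12). Neither of these last arms was called with 99% intervals.

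**Figure D2:**
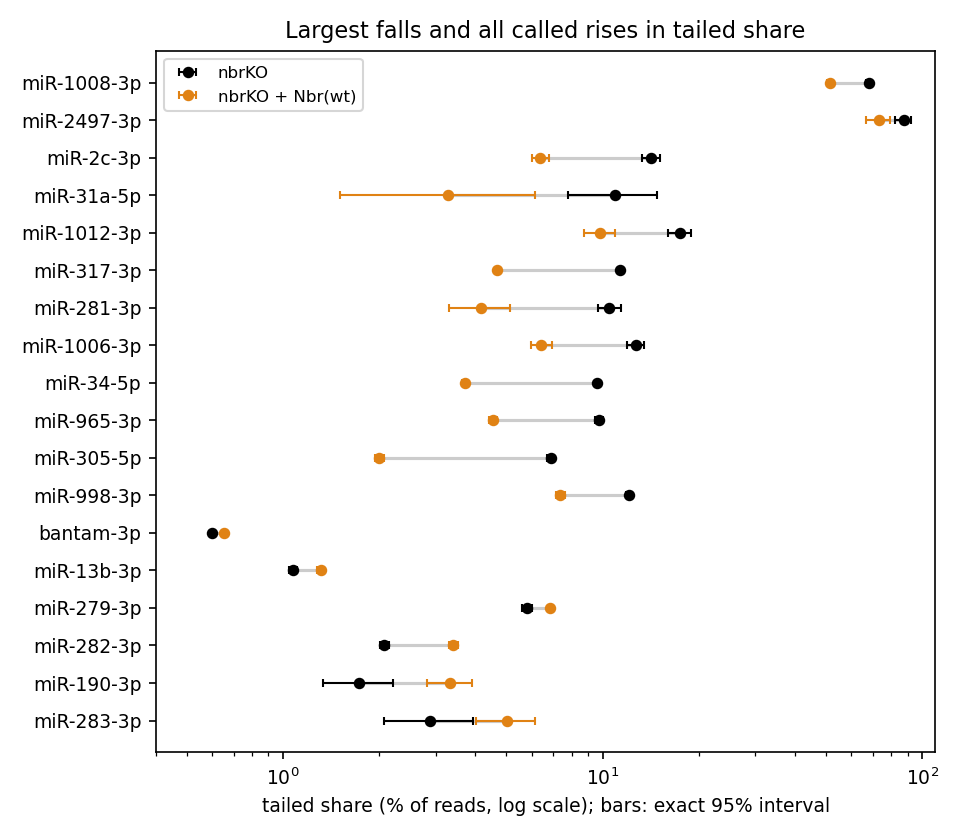
Tailed share (% of reads, log scale) in nbrKO (black) and with Nbr(wt) (orange) for the 12 arms with the largest called falls and the 6 with called rises, with exact 95% intervals as bars and a grey line joining the libraries. The share fell by 16.5 percentage points in miR-1008-3p at the top and by 4.72 in miR-998-3p, the smallest of the 12 falls, and the largest rise, of miR-283-3p, is from 2.89% to 5.01%.

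The 6 called rises were all on 3p arms. Passenger arms showed the largest: miR-283-3p had 2.89% (2.07 to 3.91) without Nbr and 5.01% (4.01 to 6.16) with it, and was not called with 99% intervals. miR-190-3p had 1.73% (1.33 to 2.21) and 3.32% (2.81 to 3.89), and miR-282-3p had 2.07% (2.01 to 2.14) and 3.41% (3.30 to 3.51). The guide miR-279-3p, which restrains the formation of carbon dioxide sensing neurons, had 5.80% and 6.84%. miR-13b-3p had 1.07% and 1.31%, and reads may be divided between it and its relatives of the miR-2 and miR-13 families. bantam-3p, the growth-promoting miRNA that represses the cell death gene hid, had 0.599% (0.592 to 0.606) and 0.654% (0.648 to 0.660), a difference that 4566844 and 7068751 reads resolve although it is small. Only the 3 passenger arms had a log2 odds ratio of at least 0.5.

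The arms of 1 hairpin did not always go together. In 52 precursors both arms could be tested: both were lower in 18, and the intervals of both overlapped in 11. Copies of a hairpin share reads, so these are not all separate measurements: both copies of mir-983 have the same values (counted once, 51 pairs and 10 with overlap), and the copies of mir-281, mir-2a and mir-2b each share 1 joined 3p value. The 5p arm was lower and the 3p arm overlapped in 7, and the reverse held in 10. In mir-282 and mir-283 the guide and the passenger were called in opposite directions. The guide miR-282-5p had 1.01% (0.979 to 1.04) without Nbr and 0.637% (0.618 to 0.656) with it while its passenger had a higher share, and the guide miR-283-5p, described above, was lower while miR-283-3p was higher. In 4 more precursors (bantam, mir-13b-2, mir-190 and mir-279) the 3p arm was higher and the 5p intervals overlapped. From the 5p side of the hairpin 28 of 56 arms were lower and 0 higher, and from the 3p side 27 of 66 were lower and 6 higher. The reads behind both sides were alike, with medians of 6394.5 and 5041.5 in nbrKO.

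Arms that share their first 7 bases could differ at the 3′ end. There were 8 such groups with 21 tested arms. miR-9b-5p and miR-9c-5p were both lower, the first as given above and the second at 3.52% in nbrKO and 2.45% with Nbr(wt). miR-275-3p (8.21% and 4.47%) and miR-306-5p (8.16% and 6.32%), which share tCAGGTA, started at nearly the same share and were both lower, with log2 odds ratios of -0.93 and -0.40. miR-995-3p, from an intron of Cdk2, had 7.07% and 4.63%, and miR-998-3p, from an intron of E2f1, had 12.1% and 7.36%. miR-279-3p and miR-996-3p share tGACTAG and have overlapping roles in restraining neuron formation, and they were called in opposite directions: miR-996-3p had 2.54% (2.31 to 2.78) without Nbr and 1.68% (1.60 to 1.77) with it. Of 7 arms with tATCACA, 3 were lower and 1 higher, and all but miR-5-3p and miR-6-3p belong to the miR-2 and miR-13 families, with the same caution.

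The reported Nbr substrates, a list recalled from work on miRNA trimming, had 8 of 10 members with enough reads. The tailed share was lower in 5 of these 8 (62.5%, against 45.1% of all tested arms) and higher in 0, with a median log2 odds ratio of -1.15 beside -0.47 over all arms. Lower were miR-34-5p, miR-317-3p, miR-305-5p, miR-31a-5p and miR-11-3p, the last from an intron of E2f1 and known to dampen cell death driven by that factor, with 4.02% (3.95 to 4.08) without Nbr and 2.17% (2.12 to 2.21) with it. The intervals of miR-263a-5p overlapped, at 5.70% (4.78 to 6.74) without Nbr and 3.90% (2.93 to 5.07) with it. miR-7-5p, which promotes photoreceptor differentiation, had 0.684% and 0.618%. The embryonic miR-3-3p had 0 tailed of 128 and of 120 reads, which allows shares of up to 2.84% and 3.03%. The median share of the list in nbrKO was 6.29%, against 2.97% over all arms. Its tested arms had a median of 47249 reads in nbrKO, against 5848 over all tested arms, and the count of calls differed by reads, as given below.

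All 8 arms listed for metabolism and insulin signalling had a lower tailed share, beside 45.1% of all tested arms, with a median log2 odds ratio of -0.88. miR-14-3p, a regulator of fat metabolism and cell death, had 3.46% (3.44 to 3.49) without Nbr and 1.60% (1.58 to 1.61) with it. miR-8-3p, which acts on insulin signalling in the fat body, had 6.82% and 3.85%. miR-33-5p, encoded in an intron of SREBP, whose protein drives lipid synthesis, had 1.42% (1.38 to 1.47) and 1.22% (1.18 to 1.26). miR-184-3p, needed for the female germline, had 4.97% and 3.69%. The least read of them in nbrKO, miR-278-3p, had 14703 reads there. Of the tested arms with at least 10000 and under 100000 reads in nbrKO 26 of 34 were lower, and of those with more 11 of 17.

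The lists that follow are read against the 45.1% of all tested arms that were lower and the 4.92% that were higher, and several are near it. Of the 12 tested arms listed for growth and cell death, 7 (58.3%) had a lower share and 2 a higher one, bantam-3p and miR-13b-3p. In the K-box seed family, whose members repress the cell death genes reaper, grim and sickle, 5 of 8 (62.5%) were lower and 1 higher. These 2 lists had medians of 367078 and 194648.5 reads in nbrKO, against 5848 over all tested arms. Of all tested arms with at least 100000 reads in nbrKO, 64.7% were lower, near both lists. miR-2b-3p had 3.12% (3.08 to 3.17) without Nbr and 1.76% (1.74 to 1.79) with it, and miR-2a-3p had 1.35% and 1.14%. Of 13 neuronal arms, 5 (38.5%) were lower and 1 higher, and the olfactory learning regulator miR-276a-3p had 0.755% and 0.745% with overlapping intervals. Of 9 tested mirtrons 4 (44.4%) were lower: besides miR-1008-3p these were miR-1012-3p (17.4% and 9.80%), miR-1006-3p (12.7% and 6.44%) and miR-1003-3p (8.92% and 6.22%). Of the 5 tested markers of other cells 0 were called, and the most read, the ovary miRNA miR-318-3p, had 1.98% and 2.07%.

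The count of calls differed by reads, by starting share and by annotated length. Of 34 arms with under 1000 reads in nbrKO 3 were lower, of 37 with at least 1000 and under 10000 reads 15, against the 26 of 34 and 11 of 17 given above for more reads. By tailed share in nbrKO, 0 of 15 arms under 1% were lower, 16 of 47 from 1% to 3%, 15 of 28 from 3% to 6% and 24 of 32 over 6%. The nbrKO share stands on both sides of that comparison, so part of such an order arises without any difference between the cells. By the mature length in the Release 6 annotation, 7 of 20 arms of up to 21 nt were lower, 22 of 59 arms of 22 nt, 21 of 29 arms of 23 nt and 5 of 11 longer ones. Median log2 odds ratios over these 4 length classes were -0.51, -0.27, -0.87 and -0.54. Guides were lower in 36 of 69 and passengers in 17 of 49, with medians of 12849 and 2260 reads in nbrKO.

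A lower share can come with fewer tailed reads or with more untailed ones, and both were seen. The level of tailed reads was lower with Nbr(wt) in 48 of the 55 arms with a lower share and higher in 4, with a median log2 ratio of -1.17. The level of untailed reads was lower in 31 and higher in 21, with a median of -0.11. These arms were chosen for a lower share, which by itself favours a lower tailed level. In the 61 arms whose intervals overlapped, the tailed level was lower in 18 and higher in 3. Their untailed level was lower in 44 and higher in 11. In the 6 arms with a higher share, the tailed level was lower in 1 and higher in 4. Their untailed level was lower in 4 and higher in 2. All these counts depend on the scaling, which was examined after the data had been seen. The tailed level was lower in 42, 37 and 34 of the 55 with the authors' RPM, median-of-ratios factors and a trimmed mean. The untailed level was lower in 25, 18 and 16 and higher in 27, 32 and 37 with the same scalings.

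miR-14-3p and miR-34-5p are cases in which the tailed reads carried the difference. miR-14-3p had 4628 tailed miRNA RPM without Nbr and 2063 with it, beside 128956 and 126919.5 untailed. miR-34-5p had 1376 and 440.5 tailed and 12979 and 11464 untailed, and the untailed ratio of both arms changes sign with the other scalings. miR-9b-5p was the opposite case, with 47.0 and 48.1 tailed and 964 and 3259.8 untailed. In miR-305-5p the levels moved apart, from 449 to 173 tailed and from 6082 to 8479 untailed. In the passenger miR-282-3p, whose tailed share was higher, both levels were lower: 319 and 186 tailed beside 15053 and 5286 untailed.

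**Figure D3:**
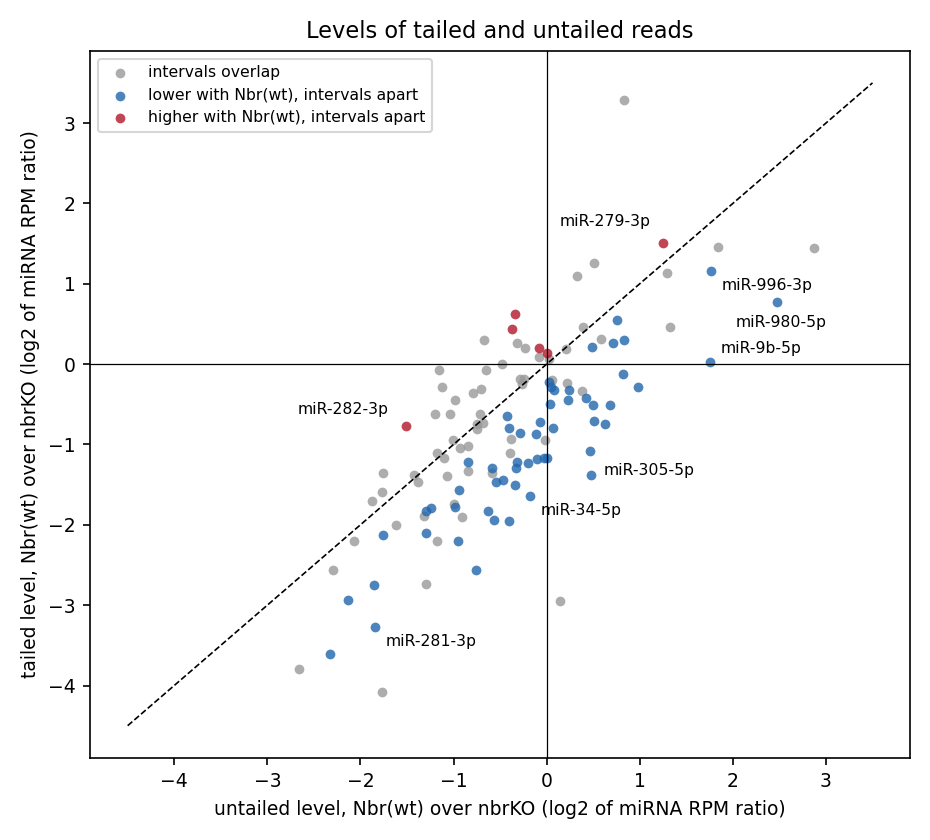
Log2 ratio, Nbr(wt) over nbrKO, of the level of untailed reads (x axis) and of tailed reads (y axis) in miRNA RPM. Each point is 1 arm. The 3 arms with no tailed read in at least 1 library are included, because a fraction of a read was added to each count. The dashed line marks equal ratios. Arms with a lower tailed share (blue) lie under it at a median of -1.17 for tailed and -0.11 for untailed reads.

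For abundance, which counts tailed and untailed reads together, 8 of the 126 arms that averaged 100 reads or more were at least 2-fold higher with Nbr(wt) (6.35%) and 33 lower (26.2%). Calls needed 2-fold on the log2(miRNA RPM + 1) scale, on which folds of rare arms come out too small, and intervals apart. The split moves with the scaling. Before the pseudocount, the authors' RPM shifts every log2 fold by 0.18, median-of-ratios factors by 0.41 and a trimmed mean by 0.46. With the pseudocount the shift differs between arms, mostly for rare ones. The authors' RPM gives 11 higher and 22 lower, median-of-ratios factors 16 and 15, and a trimmed mean 17 and 15. The 8 higher arms and 15 of the 33 lower ones were called in the same direction under every scaling. In a bulk sample, fewer cells of a type and less RNA per cell cannot be told apart.

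Of the 8 higher arms 6 were on the neuronal list, where 6 of 13 tested members were higher and 0 lower, beside 6.35% higher and 26.2% lower over all tested arms. The neuroblast miRNAs from jigr1 were among them: miR-92a-3p had 12.3 (10.4 to 14.3) miRNA RPM without Nbr and 87.9 (83.9 to 92.1) with it, and miR-92b-3p had 32.5 (29.5 to 35.8) and 114.7 (110.1 to 119.5). miR-996-3p had 1378 and 4635, miR-279-3p had 4199.5 and 10134, miR-9b-5p had 1011 and 3308, and miR-7-5p had 668 and 1635. The marker miR-124-3p was not among them, with 26 and 3 reads. The others were the mirtron miR-1013-3p, from an intron of warts (wts), with 9.83 and 24.4, and miR-980-5p, the passenger of a miRNA that limits memory, with 63.5 and 348.

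The lower arms held 16 of the 50 tested passengers and 14 of the 71 tested guides, beside 26.2% of all tested arms. Both arms of mir-278, a regulator of energy balance, were lower: miR-278-5p had 47.6 miRNA RPM without Nbr and 7.48 with it, and miR-278-3p had 1120.2 and 306. From mir-281-1 and mir-281-2, in an intron of Oda, miR-281-1-5p had 112.1 and 21.3, miR-281-2-5p 455 and 100.3, and miR-281-3p 376 and 97.9. miR-998-5p had 756 and 154, miR-1012-5p had 143.7 and 34.1, and miR-314-3p had 12.4 and 2.73. With 163 and 55 reads, miR-314-3p passed the read minimum only through nbrKO, as did miR-375-3p with 175 and 97. They had to be lower to enter, and without such arms 31 were lower. Among the arms named for the highest and lowest folds, all except miR-314-3p and miR-1013-3p kept their call with a pseudocount of 10. miR-375-3p was not part of that check.

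**Figure D4:**
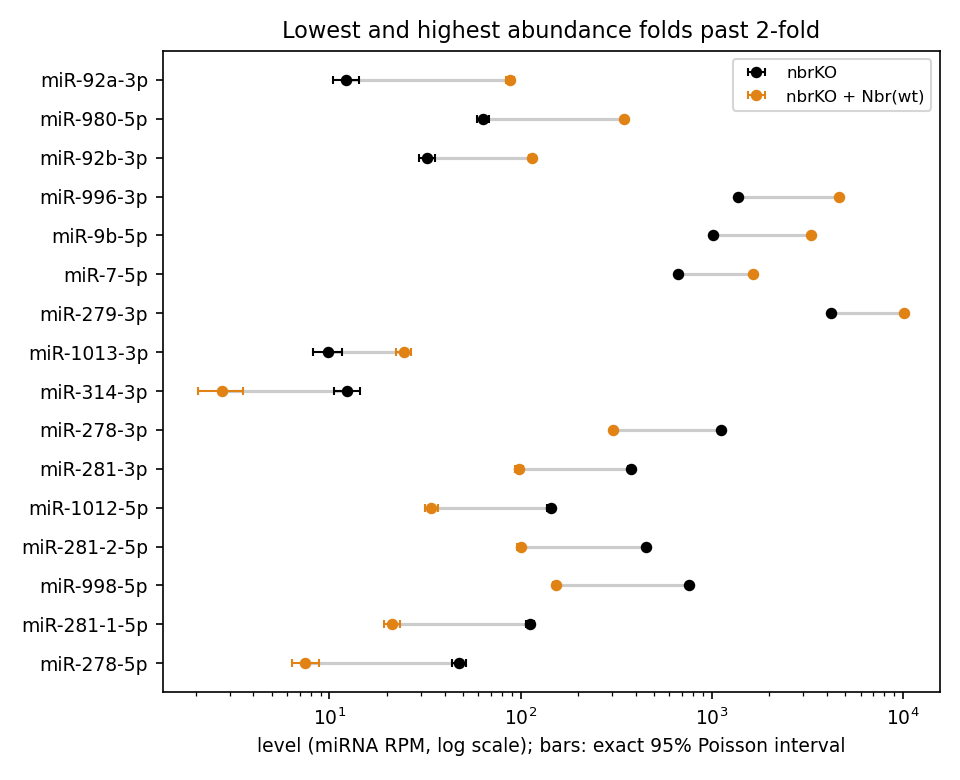
Level in miRNA RPM (log scale) in nbrKO (black) and with Nbr(wt) (orange) of the 8 arms called higher and the 8 lowest called folds, with exact 95% Poisson intervals as bars, which are narrower than the points for most arms. miR-92a-3p has the highest fold, from 12.3 to 87.9, and miR-278-5p the lowest, from 47.6 to 7.48.

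Passenger arms were scarcer relative to their guides with Nbr(wt). This ratio is taken within a library and does not depend on the scaling. It counts reads at the listed 5′ starts alone, so a shift of an arm's 5′ end enters it. Over 50 precursors with at least 100 reads of each arm in both libraries, it was lower in 38 (76%) and higher in 12 (24%) by any size. With intervals apart it was lower in 33 (66%) and higher in 6 (12%). The median was 9.49 passenger reads per 100 guide reads in nbrKO and 5.51 with Nbr(wt). At least 2-fold differences numbered 16 lower and 1 higher.

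The copies of mir-281, mir-2a and mir-2b again share 3p reads. The lowest ratios of ratios belonged to mir-996, mir-184, mir-7, mir-282, mir-2b-1 and mir-9b. In mir-996 there were 36.9 (35.9 to 38.0) passenger reads per 100 guide reads in nbrKO and 8.44 (8.25 to 8.64) with Nbr(wt). In mir-184 there were 12.1 and 3.13, and in mir-7 22.2 and 5.78. The share of reads at the listed start was lower with Nbr(wt) in the passengers of mir-7 and mir-2b-1. It was higher in that of mir-996, as given below. These precursors did not reach the lower ratio in the same way. In mir-996 the guide rose from 1378 to 4635 miRNA RPM, and in mir-282 the passenger fell from 15372 to 5473. In mir-184 the passenger miR-184-5p was lower, at 6027 and 2533, and the guide was at 49982 and 81034.

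Ratios were higher in mir-980, where 1.30 passenger reads per 100 guide reads in nbrKO became 4.26 (4.15 to 4.36) with Nbr(wt), and in mir-2279, mir-1006, mir-995 and mir-281-2, all with intervals apart. In mir-281-2 and mir-995 the passenger also had a higher share of its reads at the listed start with Nbr(wt). That share was 65.6% and 74.1% in miR-281-3p. How much of these higher ratios comes from the 5′ shift was not tested. In mir-999 the ratios were 1.95 and 2.36 with overlapping intervals. mir-277, whose guide controls the breakdown of branched-chain amino acids, had 8.90 in both libraries.

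**Figure D5:**
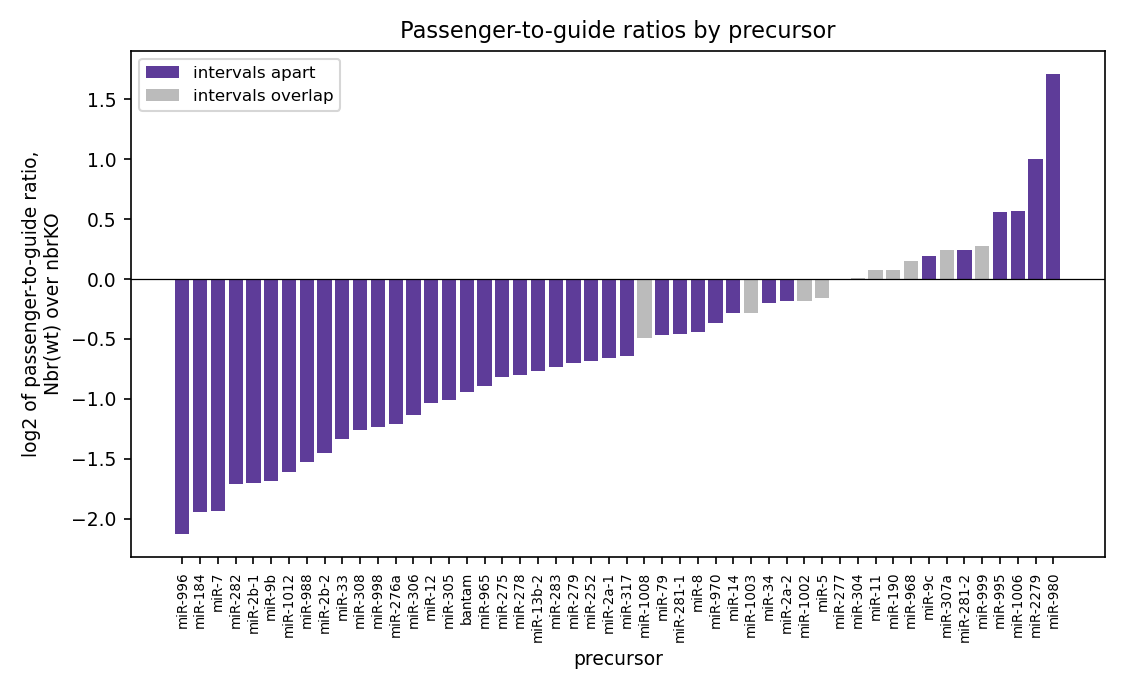
Log2 of the passenger-to-guide ratio, Nbr(wt) over nbrKO, for each of the 50 precursors (x axis, ordered by value), with bars starting at 0 and purple where the intervals of the libraries are apart. Purple bars point down in 33 precursors, most in mir-996, and up in 6, most in mir-980.

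The 5′ end was followed through the isoform share. The share of an arm's reads that begin at the listed 5′ position differed by at least 5 percentage points, with intervals apart, in 12 of 123 arms (9.76%), 6 higher and 6 lower. With the same limit of 5 points added, the tailed share was lower in 10 arms and higher in 0, so the larger count of tail calls above rests on calls of any size. The 5′ start of a miRNA sets its seed. The largest were on passengers. miR-2a-2-5p, which begins cCTCATC in the listed isoform, had that start in 52.0% (51.6 to 52.3) of its reads in nbrKO and in 71.4% (71.1 to 71.7) with Nbr(wt). miR-252-3p, which begins cCTGCTG, had 60.4% (58.2 to 62.6) and 46.5% (43.6 to 49.5), and miR-995-5p, which begins gCCCGAA, had 69.8% (67.5 to 72.0) and 82.8% (81.4 to 84.2).

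miR-1002-3p, miR-279-5p, miR-281-3p and miR-996-5p also had a higher share of the listed start, between 54.6% and 73.8% in nbrKO and between 63.5% and 84.3% with Nbr(wt). miR-2497-3p had a lower one (92.3% and 79.9%), as had miR-2b-1-5p, miR-7-3p, miR-970-5p and miR-1016-3p. Among the 12 shifted arms, miR-281-3p, miR-2a-2-5p, miR-995-5p, miR-996-5p and miR-2497-3p also had a tail call, each towards a lower share. The tail intervals of the remaining shifted arms overlapped. For comparison, 45.1% of all arms tested for tails were lower, and a link between the calls was not tested. Among guides only miR-1016-3p and miR-2497-3p shifted, leaving aside miR-281-3p, which is the guide or the passenger depending on the hairpin copy. Tailed shares, levels and passenger-to-guide ratios above count reads at the listed starts alone.

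The other 2 constructs of the series share the nbrKO library as their control, so their values are set beside those above with no comparison drawn. The tailed share of miR-9b-5p was 3.09% with NbrCTD and 1.96% with NbrCTD-GWp, names that the labels do not spell out. For the passengers with rises it was 3.63% and 2.63% in miR-282-3p and 4.00% and 3.08% in miR-190-3p.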

How the data were processed

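Small RNA of 18 to 30 nt from 25 µg of total RNA was sequenced, with 4 random bases at the ligated adapter ends, per the labels' protocols. The tools named in the submitters' processing notes are cutadapt 1.2.1 and HTSeq 0.9.1. How reads were aligned and counted, and on which genome build, is not given in the sources used here. The authors deposited, per the file headers, for each library RPM values headed GM and PM, read here as fully matching reads and as reads with an untemplated 3′ tail, and a fraction, the part of an arm that begins at the listed 5′ position. The 7-letter sequence column was read as bases 1 to 7. A further 8 per-sample columns were not used.

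RPM values were divided by the worth of 1 read, which gave whole reads within 0.01 read for 95.9% (nbrKO) and 95.7% (Nbr(wt)) of GM values and 95.2% and 91.9% of PM values. This corresponds to totals of 24005045 and 32488012 reads, of which 54.7% and 62.1% were miRNA reads. The rest were fractions, as when reads are split between loci, so no count model was fitted, and reads were rounded only for intervals. Loci with the same name and first bases were summed, and the identical miR-276a-5p and miR-276b-5p were joined. Arms of the miR-2 and miR-13 families keep uncertain single values. The miRNA RPM takes the reads of the joined arms as the total. Shares have exact Clopper-Pearson intervals and levels exact Poisson intervals at 95%, and log2 odds ratios add 0.5 reads to each kind of read. The guide is the arm with more reads over both libraries. Names, host genes and mature lengths came by name from the Release 6 annotation for 119 of the 122 tested arms, and no coordinates were converted. Python 3.11.15, pandas 2.3.3, numpy 2.4.6 and scipy 1.17.1 were used, and the code was tested on simulated data.

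Arms were named by fixed ranks: the 12 largest falls and all rises in tailed share, the 8 largest falls in log2 odds with at least 10000 reads, the 8 most abundant arms of nbrKO, the 8 highest and lowest abundance folds, the 6 largest isoform changes in each direction, the 6 lowest and highest passenger-to-guide changes, all measured reported substrates and up to 4 members of each list. Seed relatives and calls outside these ranks were named after their values were seen. The comparison, lists and members were chosen with earlier results of these data known. Alternatives were other read minima, interval levels, effect sizes, scalings, pseudocounts and handling of isoforms and families.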

Additional observations from a re-analysis of the deposited data

How the results depend on the processing

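The abundance folds of the 8 higher arms and of the 8 lowest called folds kept their sign under the alternatives run. Folds of other named arms were not rerun singly. For the log2 odds ratios of single arms, the alternatives were 99% intervals and summed isoforms, which leave the value as it is, so their sign was not tested. The balance of higher and lower calls turned over with scaling, both for abundance and for untailed levels. The count of arms lower in tailed share, 55, ranged from 45 (a log2 odds ratio of at least 0.5) to 55 over 5 alternatives. Summing the listed isoforms of an arm changed no value and is not counted. The share of tested arms moved more with the read minimum. It was 55 of 156 at 20 reads and 51 of 84 at 1000 reads, against 55 of 122. The 6 higher arms became 3 when that odds ratio was required. For abundance, the 8 higher arms became 16 with median-of-ratios factors and 17 with a trimmed mean. The 33 lower arms of 126 tested became 15 and 15 with these scalings and 21 with a pseudocount of 10. With no filter on reads they were 52 of 287. With at least 100 reads required in both libraries, chosen after seeing the data, they were 8 and 31. The 12 isoform shifts became 5 at 10 percentage points. The 38 lower and 12 higher passenger-to-guide ratios became 16 and 1 at 2-fold. Of the 55 arms with a lower tailed share, in an alternative chosen after seeing the data, the 4 with a higher tailed level became 7 with the authors' RPM, 10 with median-of-ratios factors and 12 with a trimmed mean. Their untailed level, lower in 31 and higher in 21, was lower in 18 and 16 and higher in 32 and 37 with the last 2 scalings. Before the pseudocount, the scalings shift all log2 folds by 0.18, 0.41 and 0.46, which moves these counts by construction. Of the single arms, 122 alternatives kept the call and 5 lost it: miR-2497-3p, miR-283-3p and miR-31a-5p at 99% intervals, and miR-1013-3p and miR-314-3p with a pseudocount of 10, at log2 folds of 0.80 and -0.82.

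Leaving out a library was not possible with 1 per group. No paired analysis was possible because each group held 1 library. Depth limits the rare arms: 38 of the 122 tested arms had fewer than 1000 reads in a library. With 1 library each, the library and the construct cannot be told apart.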

Other observations

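Among the rows given in only 1 of the libraries, several came from the mir-959 to mir-964 cluster, known for its expression in testis. miR-960-5p had 20 reads in nbrKO, miR-962-5p 15, miR-964-3p 9 and miR-961-5p 7, and none of these rows was given with Nbr(wt). miR-963-5p had rows of 7 reads in nbrKO and of 1 read with Nbr(wt). These arms were chosen after their values were seen, and no share or fold was computed at such counts.

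By the place of the hairpin in the Release 6 annotation, 29 of 64 tested arms from introns of protein-coding genes had a lower tailed share with Nbr(wt), 3 of 9 from exons and 23 of 46 from outside such genes. These are 45.3%, 33.3% and 50.0%, beside 45.1% over all tested arms. Median tailed shares in nbrKO were 3.23%, 3.12% and 2.54%. For 20 arms the listed 5′ isoforms differed between the libraries.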
